A study of Mus musculus with 5 samples.

Results

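The IL-12 family of cytokines was examined in macrophages that had infiltrated subcutaneous Matrigel plugs in mice. Its members were chosen by gene symbol: Il12a, Il12b, Il23a, Il27 and Ebi3. On the array, 4 of these 5 genes had a probe set named for them in the platform annotation, and 5 probe sets of 45037 carried such a name. Il12b had 2 probe sets, Il12a, Il23a and Ebi3 had 1 each, and Il27 had none, so that Il27 was not analysed here. All 5 probe sets passed the filter on low signals, as did 41053 of the 45037, and none was shared with another gene symbol.

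All animals were Idiotype-specific TCR-transgenic SCID mice on the Balb/c background, aged 7 to 12 weeks. Both groups therefore made few B cells, and few T cells beyond the transgenic ones. They carried T cells specific for the idiotype of the MOPC315 myeloma. The tumoricidal group (3 arrays) came from plugs with MOPC315 cells, and the control group (2 arrays), called non-tumoricidal in the labels, from plugs with antigen-loss MOPC315. Sorting for CD11b took place on day 8 in either group. The labels call the arrays biological replicates; whether animals were pooled is not given in the sources used here.

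Each IL-12 family cytokine is a pair of a small helical subunit and a larger, receptor-like subunit. Il12a (p35) with Il12b (p40) forms IL-12, which drives type 1 T cells and natural killer cells to make interferon-gamma. Il23a (p19) with the same p40 forms IL-23, which sustains IL-17-producing T cells. Il27 (p28) with Ebi3 forms IL-27, and p35 with Ebi3 forms IL-35, for which an inhibitory role has been described. In macrophages and dendritic cells the subunit genes are switched on by microbial signals, and interferon-gamma enhances the transcription of the IL-12 subunits.

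Signals are linear intensities after each array was scaled to a common median of about 18. A floor of 4.79, the 25th percentile of all scaled signals, was set before log2 was taken. Values of single arrays are listed in replicate order. By the signals of the spiked-in controls the arrays formed a batch A, which held control replicate 1 with tumoricidal replicates 1 and 2, and a batch B, which held the other array of each group, and differences are given within each. The median log2 difference of all tested probe sets was 0.09, against -0.11 with the deposited scaling and 0.00137 with quantile normalization. The signal of Itgam, which encodes CD11b, was between 466 and 1135 in tumoricidal and between 417 and 931 in control samples, and that of the macrophage receptor Csf1r between 5913 and 6808 and between 5186 and 5290.

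The mean differences of the subunits were of unequal size, although the exact permutation test run between partner subunits could not pass with 5 arrays. Il12a had the largest difference, 3.17 on the log2 scale, with control replicate 1 at the floor. Il12b and Ebi3 had smaller positive differences of 1.05 and 0.77, and Il23a had a mean difference near 0. None of the 5 probe sets passed limma's adjusted p of 0.05, where 0.0512% of all tested probe sets did. At an unadjusted p under 0.05, 2 of 5 (Il12a and Ebi3) were higher and 0 lower, beside 4.92% of all tested probe sets that were higher. Ebi3 passed narrowly. The count was 1 of 5 (Il12a) with the deposited scaling, quantile normalization, either lower floor or the batch as a block. It was also 1 of 5 (Il12a) without tumoricidal replicate 1 or tumoricidal replicate 2. With a control left out only 1 control remains, so no count is given and Il12a cannot be said to pass there. In 3 of 5 the groups did not overlap and the tumoricidal arrays were higher, beside 13.3% of all tested probe sets. The median difference of the 5 was 1.05, with 58.4% of all tested probe sets positive.

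**Figure D1:**
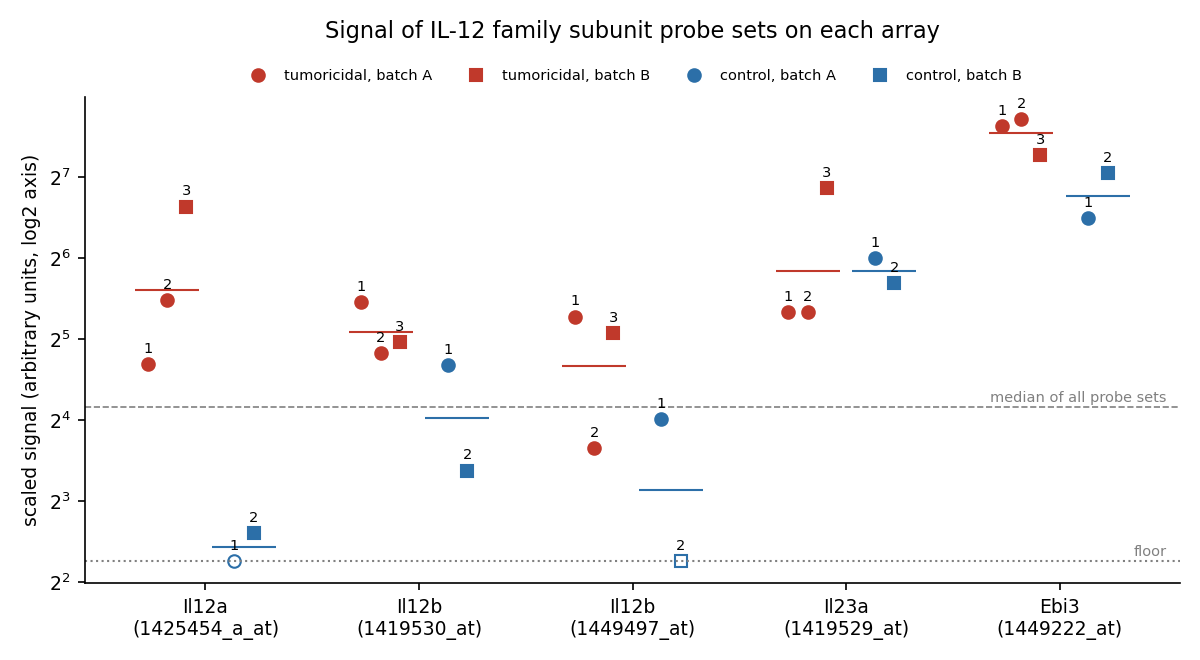
Scaled signal (log2 axis) of each subunit probe set on each array; colours give the group, shapes the spike-in batch, digits the replicate, open symbols a signal at the floor, and short lines the group mean of log2 values. Il12a shows the widest gap between groups, while Il23a has tumoricidal replicate 3 above and replicates 1 and 2 below both controls.

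Il12a, the p35 subunit that is specific to IL-12 and IL-35, was read by probe set 1425454_a_at. It read 25.9, 44.6 and 99.6 on the tumoricidal arrays and 1.19 and 6.10 on the controls. Every tumoricidal array lay above both controls, and tumoricidal replicate 3 was the highest. The mean was 56.7 ± 38.3 (SD, n = 3) against 3.65 ± 3.47 (SD, n = 2). Control replicate 1 was at the floor, which can only have lowered the log2 difference of 3.17 (SE 0.58, 95% interval 1.73 to 4.61, limma adjusted p = 0.220). This holds for these arrays on this scaling alone. The difference was 3.09 with the deposited scaling and 3.04 with quantile normalization. The 3.17 was the 46th largest difference of 41053 probe sets. Batch A alone gave 2.83 and batch B alone 4.03. With single arrays left out it lay between 2.65 (tumoricidal replicate 3) and 3.62 (tumoricidal replicate 1). Its adjusted p ran from 0.0290 to 0.908 over the alternatives that gave one. The lowest came from testing only the 21869 probe sets with a mean log2 signal above the median of 4.16, which Il12a passed through its tumoricidal arrays (its control mean was 2.43), so that this p is no support for a difference. On a log2(signal + 16) scale with no floor, which shrinks differences of low signals, the difference was 1.77.

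The Il12a gene has 2 annotated transcription starts in RefSeq, and the probe set gives 1 value for the gene that is not split by start. The stretch around the second start and that of the Il12b start are shown because these genes encode the subunits that pair as IL-12. The first Il12a stretch, which held no match to the motifs searched, is not shown. The second was the only member stretch with a match, so it is not a choice made without regard to the match. Both are from RefSeq with the build GRCm38.p6, on the plus strand, 250 bases before to 50 after the start, at chr3:68691174-68691473 and chr11:44399813-44400112. Capitals mark a match to GGANTTTCC, a kappaB-like motif, on either strand.
Il12a second start: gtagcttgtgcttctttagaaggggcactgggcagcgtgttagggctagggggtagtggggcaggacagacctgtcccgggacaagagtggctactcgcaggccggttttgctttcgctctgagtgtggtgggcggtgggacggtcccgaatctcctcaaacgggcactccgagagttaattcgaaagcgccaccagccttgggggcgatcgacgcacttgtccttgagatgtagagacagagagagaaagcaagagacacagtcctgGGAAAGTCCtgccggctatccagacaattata
Il12b start: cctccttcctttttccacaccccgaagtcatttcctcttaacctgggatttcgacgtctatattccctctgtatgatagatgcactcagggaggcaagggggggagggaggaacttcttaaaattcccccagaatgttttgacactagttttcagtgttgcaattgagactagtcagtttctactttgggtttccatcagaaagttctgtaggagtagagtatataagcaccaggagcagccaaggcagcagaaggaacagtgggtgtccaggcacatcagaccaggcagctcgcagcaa
The match in the Il12a stretch lies on the minus strand and begins 18 bases after the start. Of 32851 RefSeq windows of 300 bases, 1.25% held this motif. The other motifs searched on both strands were GAAANNGAA, TTCNNNGAA and TGANTCA, which 8.56%, 8.30% and 7.81% of windows held. The Il12b window, both Il12a windows and the 1 Ebi3 window had no match to these, and the Il12b, Ebi3 and first Il12a windows had none to the kappaB-like motif. These are matches of letters in a short window and were not set against any binding data.

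Il12b encodes p40, the subunit that IL-12 and IL-23 have in common. On probe set 1419530_at, the one with the higher mean, signals were 44.0, 28.4 and 31.3 on the tumoricidal arrays and 25.7 and 10.4 on the controls. The groups did not overlap, but tumoricidal replicate 2 exceeded control replicate 1 only narrowly. The mean was 34.6 ± 8.31 (SD, n = 3) against 18.1 ± 10.8 (SD, n = 2), and the log2 difference 1.05 (SE 0.45, 95% interval -0.07 to 2.18, limma adjusted p = 0.669). Batch A alone gave 0.46, and batch B, where control replicate 2 is the only control, 1.59. Without control replicate 2 it was 0.40, and without control replicate 1 it was 1.71.

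The other Il12b probe set, 1449497_at, gave 38.8, 12.6 and 33.7 on the tumoricidal arrays and 16.2 and 2.90 on the controls. Here the groups overlapped, since tumoricidal replicate 2 lay below control replicate 1, and control replicate 2 was at the floor. The log2 difference was 1.53 (SE 0.71, limma adjusted p = 0.709), with 0.45 within batch A and 2.81 within batch B. The floor can only have lowered the 1.53 and the 2.81. Both Il12b probe sets had tumoricidal replicate 1 highest and control replicate 2 lowest.

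Il23a encodes p19, the subunit that is specific to IL-23. Its signals on probe set 1419529_at were 40.4, 40.2 and 117 on the tumoricidal arrays and 64.0 and 51.6 on the controls. Tumoricidal replicates 1 and 2 were below both controls and replicate 3 above both. The log2 difference of 0.000244 (SE 0.53, 95% interval -1.32 to 1.32, limma adjusted p = 0.99987) therefore averages arrays that lay on opposite sides of the controls. Batch A alone gave -0.67 and batch B alone 1.18, and the difference was -0.51 without tumoricidal replicate 3. Its sign also depends on the scaling, with -0.23 on the deposited scale and -0.09 after quantile normalization.

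Ebi3 encodes the receptor-like subunit of IL-27 and IL-35. Probe set 1449222_at gave 198, 211 and 155 on the tumoricidal arrays and 90.1 and 132.6 on the controls. The groups did not overlap, and the lowest tumoricidal array and the highest control, both of batch B, lay closest together. The mean was 188 ± 29.7 (SD, n = 3) against 111 ± 30.1 (SD, n = 2), and the log2 difference 0.77 (SE 0.30, 95% interval 0.04 to 1.50, limma adjusted p = 0.600). Batch A alone gave 1.18 and batch B alone 0.22. With single arrays left out it lay between 0.49 (control replicate 1) and 1.05 (control replicate 2). Without an Il27 value, nothing can be said of its partner in IL-27.

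**Figure D2:**
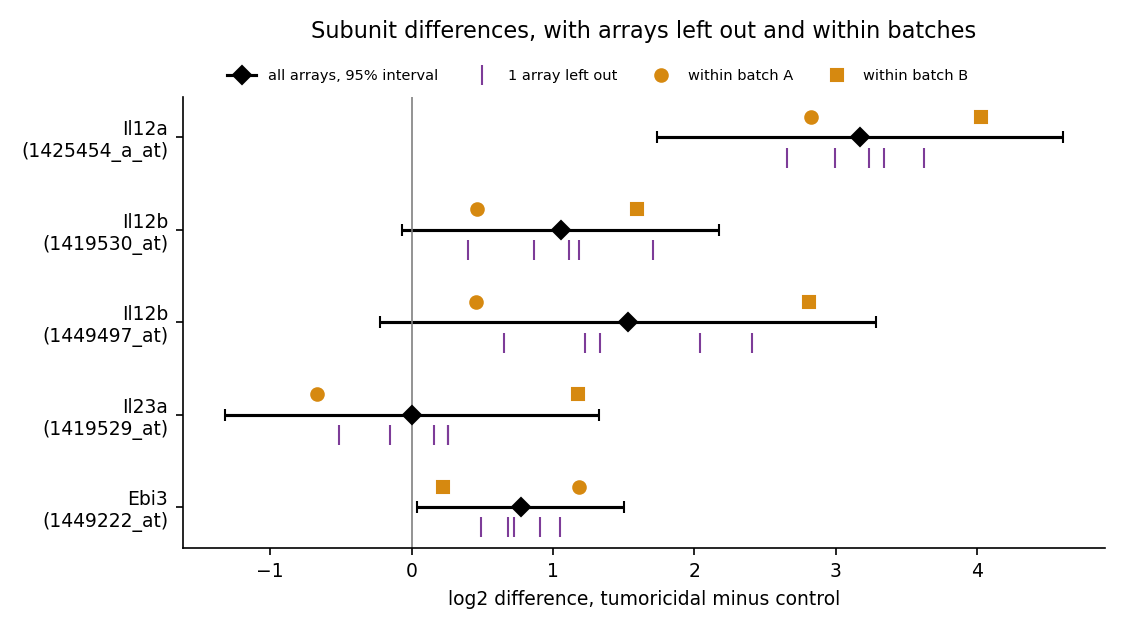
Log2 difference between tumoricidal and control arrays for each probe set (diamonds, with limma's 95% interval), the same with 1 array left out (ticks) and within each spike-in batch (circles and squares). Il12a lies between 2.65 and 4.03 throughout, whereas Il23a lies on both sides of 0.

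The highest array was not the same for all subunits: tumoricidal replicate 3 for Il12a and Il23a, replicate 1 for Il12b on both probe sets, and replicate 2 for Ebi3. Partner subunits were compared as the log2 ratio of their signals on each array, set to the control mean, because levels of different probe sets cannot be compared directly. This ratio bears only on whether the 2 subunits changed unequally. With 5 arrays there are 10 ways to assign 3 and 2, so the smallest p that the exact permutation test allows is 0.1, and none of the 3 pairs can pass 0.05.

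For IL-12, the ratio of Il12a to Il12b was 0.833, 2.25 and 3.27 on the tumoricidal arrays and -0.83 and 0.827 on the controls. The groups barely separated, tumoricidal replicate 1 being level with control replicate 2. The difference was 2.12 (exact permutation p = 0.2, two-sided; adjusted over the pairs 0.3), and 1.64 with the other Il12b probe set, an alternative chosen after the data were seen, in which each subunit had a control at the floor, so that the value is no bound. Batch A alone gave 2.37 and batch B alone 2.44, and the difference was 1.29 without control replicate 1.

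For IL-35, the ratio of Il12a to Ebi3 was 1.40, 2.09 and 3.70 on the tumoricidal arrays and 0.10 and -0.10 on the controls. All tumoricidal arrays lay above both controls. The difference was 2.40 (exact permutation p = 0.2; adjusted 0.3), with 1.64 within batch A and 3.81 within batch B. As Il12a was at the floor in control replicate 1, the floor can only have lowered these IL-12 and IL-35 differences wherever that array enters.

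For IL-23, the ratio of Il23a to Il12b was -1.94, -1.31 and 0.09 on the tumoricidal arrays and -0.50 and 0.50 on the controls. The groups overlapped through tumoricidal replicate 3. The difference was -1.05 (exact permutation p = 0.3; adjusted 0.3), -1.13 within batch A and -0.41 within batch B. It lay between -1.62 without tumoricidal replicate 3 and -0.56 without control replicate 2.

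**Figure D3:**
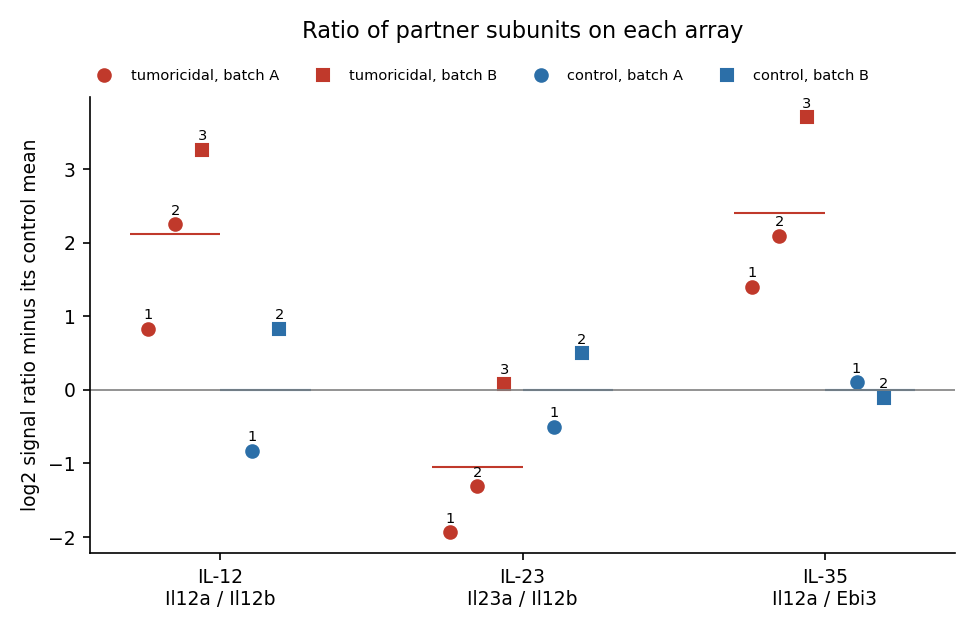
Log2 ratio of the signals of partner subunits on each array, minus the mean of the control arrays; symbols as in the plot of signals by array, short lines are group means. The ratios of Il12a to Il12b and to Ebi3 are higher in tumoricidal arrays, with group differences of 2.12 and 2.40, and the ratio of Il23a to Il12b overlaps between groups.

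Genes that receive, carry, induce or restrain IL-12 family signals were taken from a list of 39, of which 34 were tested and the others were not analysed here. None passed limma's adjusted p of 0.05, beside 0.0644% of 17074 genes. At an unadjusted p under 0.05, 11 of 34 were higher and 0 lower, beside 6.12% of all genes that were higher. In 19 of 34 the groups did not overlap with tumoricidal arrays higher, beside 17.0% of all genes. Differences were positive in 30 of 34, beside 63.0% of all genes. The median log2 difference was 0.55 over the 34 and 0.13 over all genes. Among these 34, only Socs1 exceeded the 3.17 of Il12a.

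**Figure D4:**
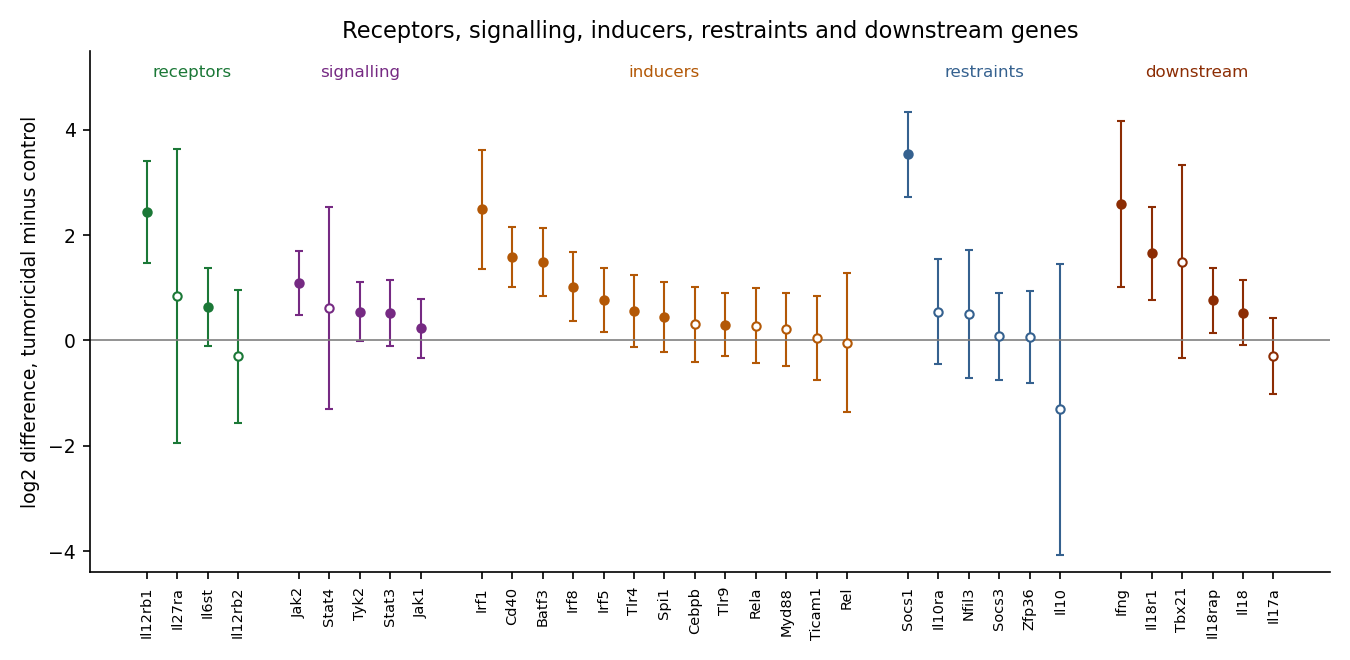
Log2 difference between tumoricidal and control arrays, with limma's 95% interval, for the 34 tested genes by role; filled symbols mark genes whose groups did not overlap. The largest positive differences are those of Socs1 (3.53), Ifng (2.59), Irf1 (2.49) and Il12rb1 (2.44). Il10 (-1.31) is the lowest, and the intervals of Il27ra and Il10 are the widest.

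Among receptors, Il12rb1, the chain that binds p40 and serves both IL-12 and IL-23, had 78.1, 71.9 and 124 on the tumoricidal arrays and 12.2 and 21.8 on the controls. The groups were well separated (log2 difference 2.44, SE 0.39, limma adjusted p = 0.175), with 2.62 and 2.51 within batches A and B. Il12rb2, the other IL-12 receptor chain, differed by -0.30 with 2 tumoricidal arrays and 1 control at the floor. Il6st, the shared signalling chain of IL-27 and other cytokines, differed by 0.64 (limma adjusted p = 0.714). Il27ra, the specific IL-27 receptor chain, had 44.4, 108 and 7.36 on the tumoricidal arrays and 12.7 and 26.1 on the controls, so that its difference of 0.85 (SE 1.13) rested on tumoricidal replicates 1 and 2; batch A alone gave 2.45 and batch B alone -1.83, and the difference was -0.00719 without tumoricidal replicate 2.

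All 5 signalling genes tested had positive differences, beside 63.0% of all genes, and in 4 the groups did not overlap with tumoricidal arrays higher, beside 17.0%. Jak2, a kinase bound to the IL-12 and IL-23 receptors, differed by 1.09 (SE 0.25, limma adjusted p = 0.318) and Tyk2, its partner kinase, by 0.55. Stat4, the transcription factor that IL-12 activates in lymphocytes, had 36.8, 105.6 and 19.4 on the tumoricidal arrays and 42.2 on control replicate 1, while control replicate 2 was the lowest of all. Its groups overlapped, and its difference of 0.62 became -0.04 without tumoricidal replicate 2.

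Of 13 inducers, 12 had positive differences, beside the same 63.0%, and in 8 the tumoricidal arrays lay above both controls, beside 17.0%. Irf1, an interferon-induced factor that acts on Il12a and Il12b transcription, had 2554, 1874 and 4135 on the tumoricidal arrays and 353 and 659 on the controls. Tumoricidal replicate 3 was the highest for Irf1, as it was for Il12a (log2 difference 2.49, SE 0.45, limma adjusted p = 0.220). Cd40, the receptor through which T cells prompt IL-12 production, had 709, 632 and 614 against 209 and 225, a difference of 1.58 (SE 0.23, limma adjusted p = 0.152). Batf3, a factor of the dendritic cells that make IL-12, differed by 1.49 (SE 0.26, limma adjusted p = 0.206). Rel, the NF-kappaB subunit known for its role at Il12b, differed by -0.04 (SE 0.53), and its groups overlapped.

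Among 6 genes that restrain these cytokines, Socs1, a feedback inhibitor of JAK kinases, had 182, 105.02 and 119.9 on the tumoricidal arrays and 12.7 and 10.2 on the controls. It had the lowest adjusted p of the 34 (log2 difference 3.53, SE 0.33, limma adjusted p = 0.0577). Il10, a suppressor of IL-12 production, had 65.5, 41.1 and 462 on the tumoricidal arrays and 151 and 470.1 on the controls. The arrays of batch B held the highest values in both groups (log2 difference -1.31, SE 1.12), with -1.54 within batch A and -0.02 within batch B. Il10ra, the ligand-binding chain of its receptor, differed by 0.55.

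Downstream of IL-12, Ifng had 41.6, 84.7 and 23.3 on the tumoricidal arrays and 10.9 and 1.60 on the controls, the last at the floor. The groups did not overlap (log2 difference 2.59, which the floor can only have lowered, SE 0.64, limma adjusted p = 0.365). Il18r1, a receptor chain for IL-18, which acts together with IL-12, differed by 1.65 (SE 0.35, limma adjusted p = 0.292). Tbx21, the type 1 transcription factor T-bet, was at the floor in both controls and had 25.8, 19.8 and 4.32 in the tumoricidal arrays, the last also at the floor. Il17a, a product of IL-23-dependent T cells, differed by -0.29 and its groups overlapped.

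Markers of cell types were also compared between the groups. In bulk samples, more cells of a type and more RNA per cell cannot be told apart. Beside the counts below, 63.0% of all genes were higher, and in 17.0% the groups did not overlap with tumoricidal arrays higher. The dendritic cell count of 5 higher of 8 is close to the first share. The 8 measured dendritic cell markers summed to between 1198 and 1443 in tumoricidal and between 666 and 822 in control samples, with 5 higher and 3 lower. Most of the gap between these sums came from Itgax alone, with 711, 578 and 784 on the tumoricidal arrays and 189 and 180 on the controls. Itgax, Batf3 and Ly75 did not overlap between groups, while Flt3, Zbtb46, Xcr1, Cd209a and Ccr7 did. All 5 measured natural killer cell markers were higher, summing to between 584 and 1041 against 132.0 to 186. The 6 neutrophil markers summed to between 9685 and 10942 against 4381 to 7132, with 5 higher. S100a8 and S100a9 made up most of these sums. With Cxcr2 they did not overlap between groups, while Csf3r, Mmp8 and Elane did. T-cell markers summed to 1154 in tumoricidal replicate 2 and to between 87.0 and 111 in tumoricidal replicates 1 and 3, against 86.8 and 175 in controls. Tumoricidal replicate 2 was also the highest array for Ebi3 among the subunits. Among the 34 pathway genes it was the highest for Il27ra, Stat4, Ifng, Il6st, Jak1, Jak2, Myd88, Il18r1 and Il18rap. Whether T cells account for any of these signals was not tested. Of 8 plasma cell or myeloma markers 6 were lower (sums of 3587 to 4879 against 5631 to 6287), and the 4 B cell markers summed to between 44.7 and 71.6 against 70.1 to 98.3. The summed macrophage markers overlapped between groups (21124 to 32022 against 20381 to 26204), with 7 of 8 higher; Csf1r and Fcgr1 did not overlap and the other 6 did. None of these markers was at the floor on all 5 arrays, and the part of these cells in the subunit signals was not tested.

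The genes of most like pattern were sought among 10900 named genes, by the root mean square difference of log2 signals centred on their mean over the 5 arrays. For Il12a these were Procr, the endothelial protein C receptor (0.41), Inhba, a subunit of activin A (0.41), and Wdtc1 (0.47). Procr had 489, 406 and 1003 on the tumoricidal arrays and 44.8 and 55.1 on the controls (log2 difference 3.55, SE 0.44, limma adjusted p = 0.105). All genes of like pattern were chosen on these same arrays. Features that they share with their member, such as the highest replicate, follow from that choice and are no further support. No gene came within 0.3 of Il12a, while 36 did for Il12b, 57 for Il23a and 1323 for Ebi3. These counts do not follow the size of the group difference, which was 0.000244 for Il23a and 0.77 for Ebi3. They depend on how widely a member's own values spread over the arrays, as the distance is not scaled to that spread. The counts therefore do not show whether a pattern is rare or common. Nearest to Il12b were Adarb1, an RNA-editing enzyme (0.13), 8430426J06Rik (0.16) and Tmem213 (0.17). Nearest to Il23a were the kinase Sgk1 (0.12), Flrt3 (0.15) and the growth factor Fgf7 (0.16), in which tumoricidal replicate 3 was likewise above the controls and replicates 1 and 2 below them. Nearest to Ebi3 were the calcium pump Atp2a1 (0.03), Mpzl3 (0.06) and Pald1 (0.06).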

How the data were processed

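Biotinylated cRNA from 6 µg of total RNA was hybridised to Affymetrix arrays, per the labels' protocols. The authors deposited linear signal intensity per probe set for 5 arrays; the labels name no software, probe summary or scaling. With 2% of values trimmed from both ends, every array had a mean of 100.0.

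Each array was scaled to the median of the 5 array medians, 64 control probe sets were removed, signals were raised to a floor of 4.79 and log2 was taken. Left untested were 3984 probe sets that never exceeded the floor. The other 41053 were fitted with limma 3.58.1 in R 4.3.3 (lmFit and eBayes without trend, no covariate, two-sided, Benjamini-Hochberg), a test checked on simulated data. Figures used Python 3.11.15 and matplotlib 3.10.9. Symbols came from the platform annotation, and each gene was represented by its probe set of highest mean log2; the Entrez identifiers of all 5 member probe sets matched RefSeq genes of GRCm38.p6. Partner ratios were tested with an exact permutation test over arrays. Arrays give no counts, and their number limits the precision. The limma p-values set a group difference against the variation between these arrays, moderated over all tested probe sets. The permutation p-values count assignments of these arrays to the groups.

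The members, gene lists and tests were chosen with earlier results of these data known. Named genes are all members, in each role group the 3 genes with the largest absolute difference where none passed, and 3 genes of most like pattern per member; Il12rb2, Rel and Il17a were added after their values were seen. Alternatives covered scaling, floor, pseudocount, filter, variance trend, batch and replicate blocks, and each array left out.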

Additional observations from a re-analysis of the deposited data

How the results depend on the processing

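Il12a, Il12b, Ebi3 and the 3 partner ratios kept their direction under every alternative run. Within a single batch there is no test. Of the other 14 alternatives, Il12a passed the adjusted threshold under 1: with only probe sets above the median tested, its difference of 3.17 was called, so the count of member probe sets called went from 0 to 1. That setting left out the second Il12b probe set. Among pathway genes the count called went from 0 to 4 under the same filter (Il12rb1, Irf1, Cd40 and Socs1) and to 2 (Cd40 and Socs1) with log2(signal + 16) and with an eBayes trend. Il12a, Il12rb1 and Socs1 had control means below that median and passed the filter through the tumoricidal arrays, so their calls under it are no support. Calls over all probe sets rose too, from 21 of 41053 to 219 of 21869 (filter), 71 of 45037 (pseudocount) and 65 of 41053 (trend). They were 0 with either lower floor or any tumoricidal array left out. With a control left out only 1 control remains, so no count of calls is given for it.

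With the spike-in batch as a block the differences were 3.34 for Il12a, 0.94 for Il12b, 0.12 for Il23a and 0.77 for Ebi3. The labels give no pairing of same-numbered replicates. Their deviations correlated at 0.02 for replicate 1 and -0.24 for replicate 2 across probe sets. These values cannot decide whether a pairing exists, since there are only 2 controls and the arrays of replicate 2 lie in different batches. The replicate block, in which tumoricidal replicate 3 has no partner and drops out, gave 2.65 for Il12a, 1.11 for Il12b, 0.91 for Ebi3 and -0.51 for Il23a and called 0 probe sets, as did the batch block. The unadjusted p of Ebi3 (limma) went from 0.0426 to 0.0604 with the batch and 0.0673 with the replicate block.

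Il23a changed sign with the deposited scaling (-0.23), quantile normalization (-0.0912), the replicate block (-0.51) and within batch A (-0.67), and ran from -0.51 to 0.26 over arrays left out. Sgk1, chosen for its likeness to Il23a on these arrays, turned to -0.12, -0.22, -0.31 and -0.37 under the same 4 settings. It lay at -0.31 without tumoricidal replicate 3. Flrt3 was 0.10 with the batch block, 1.18 within batch B, and 0.14, 0.33 and 0.03 without tumoricidal replicate 1, tumoricidal replicate 2 or control replicate 1, with -0.62 as the lowest over arrays left out. Fgf7 was 0.75 within batch B, and 0.03 and 0.12 without tumoricidal replicates 1 and 2, with -0.63 as the lowest over arrays left out. Il27ra was -1.83 within batch B and -0.00719 without tumoricidal replicate 2, with 1.93 the highest over arrays left out. Stat4 ran from -0.0446 without tumoricidal replicate 2 to 1.23 without control replicate 1. Rel was 0.14 with the batch block and 0.43 within batch B, and ran from -0.49 to 0.37 over arrays left out; Il12rb2 ran from -0.93 to 0.33. Il17a was 0.10 within batch A. The cause was not tested. The Il27 difference and the IL-27 partner ratio were not run, as no probe set is named for Il27.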
